A study of Mus musculus with 3 samples.

Results

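The cyclin genes Ccnd1, Ccnd2, Ccnd3, Ccne1, Ccne2, Ccna2, Ccnb1, Ccnb2 and Ccnf and the kinase gene Cdk1 were followed across NIH3T3 cells, an immortalized line of mouse embryo fibroblasts of the NIH/Swiss strain. They are 10 of the genes of the cell cycle engine, listed by name, and a probe set was taken for a gene when the array annotation named that gene alone. By this rule 9 of the 10 genes had at least 1 named probe set, 22 probe sets in all, out of 45037 probe sets and 18193 named genes on the array. The annotation table used here pairs no probe set with Ccnb1, cyclin B1, so the level of that gene is not analysed here. The paper's supplement does list it, jointly with a second symbol, as more than 2-fold higher than control in both YAP lines. The counts of differences below leave it out. The 3 samples were untransduced cells (control), cells carrying mouse YAP with the S112A substitution (mtYAP), and cells carrying wild-type mouse YAP (YAP), with 1 array each. In mtYAP the serine at position 112, which LATS kinases phosphorylate, is an alanine. Both YAP lines were made with a retrovirus and selected with puromycin as a population of surviving cells, whereas the control is labelled as untransduced. The methods also describe a virus made from the empty vector, and a free-text note on the control refers to another experiment on stem cells, so how the control was treated is in some doubt. All cells were grown with 10% calf serum, and although the arrays were made to study growth at confluence, the density of the cells when RNA was taken is not stated.

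Cyclins are the regulatory subunits of cyclin-dependent kinases (CDKs), and each kind rises and is destroyed at its own point of the cell cycle. D-type cyclins respond to growth factors and, with CDK4 and CDK6, begin the phosphorylation of the retinoblastoma protein in G1. Cyclin E with CDK2 carries cells into S phase, cyclin A acts in S and G2, and cyclin B with CDK1 drives mitosis. NIH3T3 cells normally stop dividing when they touch each other, and the study asked how forced expression of YAP lets them go on.

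The measurements are log2 levels from whole-genome mouse expression arrays of Affymetrix (430 2.0). A gene's level is the mean over its probe sets, and a log2 difference of 1 between arrays is a 2-fold difference. Genes past that limit are called, without any test, because 1 array per condition gives no replicate error, and the number of arrays limits the precision. A level of 6 or more was taken as clearly measured. Levels of different genes come from different probes and were not compared with each other. In whole-culture RNA, a larger share of cells in a phase of the cycle and more RNA per cell cannot be told apart.

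Array medians lay between 4.56 and 4.6. All 9 fibroblast markers were above a level of 6 on all 3 arrays, and none of 16 markers of embryonic stem, epithelial, endothelial and blood cells was, the highest standing at 5.22. Stem cell markers were included because of that note on the control. The log2 levels of the 6 stem cell markers summed to 17.04, 17.82 and 17.79 on the control, mtYAP and YAP arrays. Those of the fibroblast markers summed to 100.36, 89.79 and 97.57. In mtYAP 9 of 9 were lower than in control, with 4 below a log2 difference of −1, where 4.06% of all genes were. In YAP 7 of the 9 markers were lower and 1 was below −1, where 1.26% of all genes were. Their part in the cyclin differences was not tested. The mean of the 2 probe sets of Yap1 was 8.57 on the control array, 7.89 on the mtYAP array and 8.06 on the YAP array. Their place on the transcript, and so whether they can see the introduced coding sequence, is unknown here, and they check no label.

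Most of these genes read higher on the mtYAP array than on the control array. Of the 9 genes, 8 were higher in mtYAP, and 5 were above the 2-fold limit, namely Ccnd1, Ccne2, Ccna2, Ccnf and Cdk1, where 3.77% of all genes were. None was below −1, where 4.06% of all genes were. The median log2 difference of the 9 was 1.09, beside 0.02 over all genes. Among the 6 of them that reached a level of 6 on at least 1 array as the mean of their probe sets, 3 were above the limit, beside 7.66% of all genes reaching that level. Ccnb2 was among these 6 through its levels in mtYAP and YAP and not in control.

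On the array of the cells labelled wild-type YAP the differences were smaller. Again 8 of the 9 genes were higher than in control, Ccne1 by only 0.005 on the log2 scale, with a median of 0.45 beside −0.003 over all genes. Ccnb2 was the single gene above the limit, where 1.36% of all genes were, or 2.72% of those reaching a level of 6, and none was below −1, where 1.26% were. With the limit lowered to a log2 difference of 0.65, Ccnf joined it in YAP, beside 3.74% of all genes, and 8 of the 9 genes were above it in mtYAP, beside 8.07%. The control array enters both of these comparisons, so their values are not separate evidence. The mtYAP and YAP arrays can be set against each other without it. There 8 of 9 genes were higher in mtYAP, with a median of 0.69 beside 0.03 over all genes. Ccne2 and Cdk1 were above the limit, beside 0.748% of all genes, and none was below −1, beside 1.42%. Cdk1 was the called gene among the 6 that reached a level of 6, beside 1.33% of such genes.

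**Figure D1:**
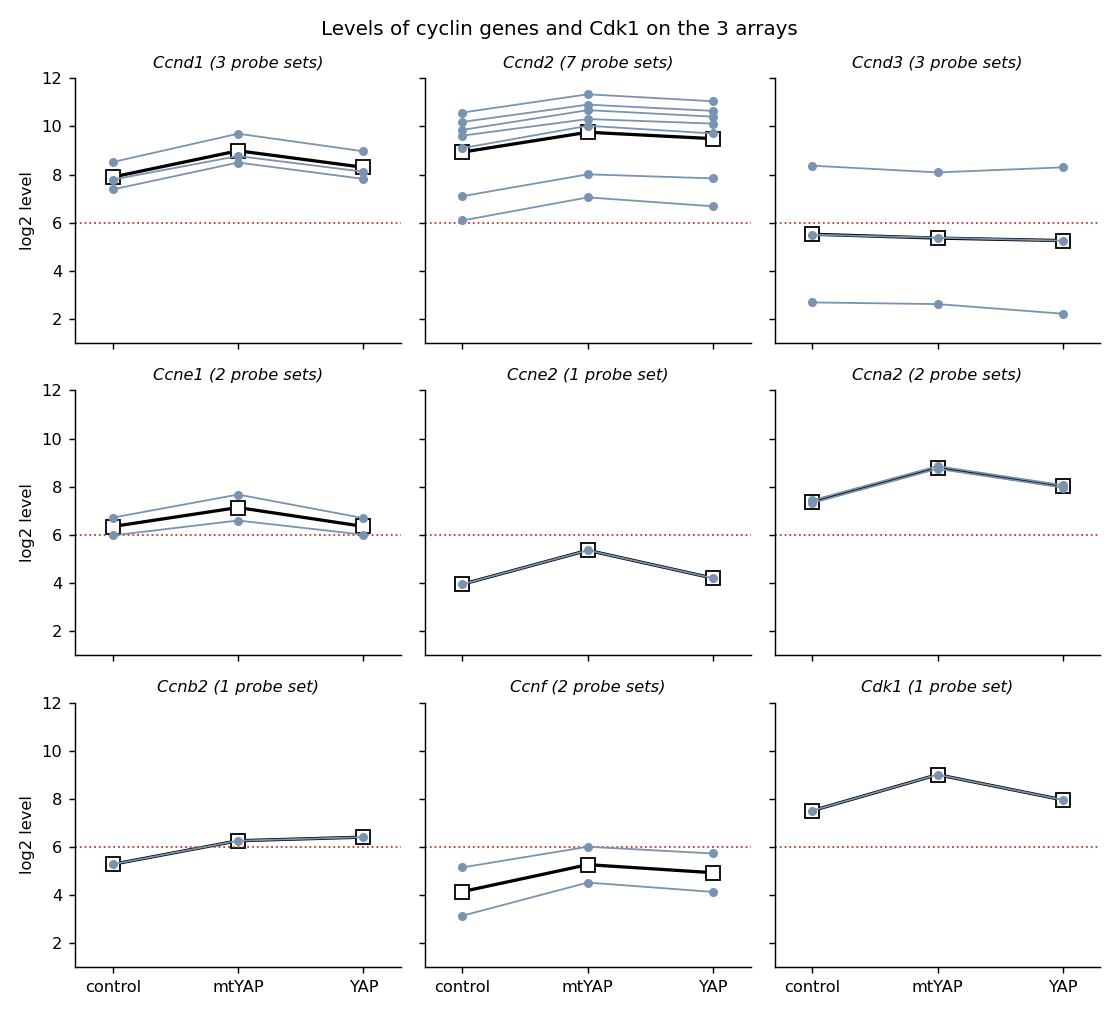
Log2 level (vertical axis) of 9 genes on the control, mtYAP and YAP arrays (horizontal axis). Blue points joined by lines are single probe sets, open squares are their mean, and the dotted line marks a level of 6. Cdk1 peaks in mtYAP at 9.0, Ccnb2 is as high in YAP (6.40) as in mtYAP (6.25), and the probe sets of Ccnd2 run in parallel.

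Ccnd1 encodes cyclin D1, which links growth factor signals to CDK4 and CDK6. Its level was 7.90 in control cells, 8.99 in mtYAP and 8.30 in YAP. The log2 difference from control was 1.09 (2.13-fold) in mtYAP and 0.41 (1.33-fold) in YAP. All 3 probe sets lay above a level of 6 on every array and gave log2 differences from 0.98 to 1.18 in mtYAP and from 0.33 to 0.45 in YAP. The order of the arrays was the same in each of them, with mtYAP highest and control lowest. Of all genes, 3.17% were higher by as much or more in mtYAP and 9.36% in YAP, counting higher genes alone. With the median of the probe set levels in place of their mean the log2 difference in mtYAP was 0.98, below the limit.

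Ccnd2, cyclin D2, is a D-type cyclin known as a target of MYC. It was read by 7 probe sets, more than any other gene here, whose mean level was 8.93 in control cells, 9.76 in mtYAP and 9.49 in YAP. The log2 difference from control was 0.83 (1.77-fold) in mtYAP and 0.56 (1.47-fold) in YAP. The probe sets differed widely in level, from 6.09 to 10.58 in control, and little in the difference they gave, from 0.69 to 0.96 in mtYAP and from 0.46 to 0.74 in YAP. None passed the limit, and all 7 placed mtYAP above YAP and YAP above control. The step from YAP to mtYAP was 0.27 on the log2 scale, smaller than the step of 0.69 for Ccnd1.

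Ccnd3, cyclin D3, was the gene that did not follow the others. Its mean level was 5.52 in control cells, 5.36 in mtYAP and 5.25 in YAP, which are log2 differences of −0.16 and −0.26. Of its 3 probe sets only 1 was clearly measured, and it read 8.37 in control, 8.09 in mtYAP and 8.30 in YAP. That probe set alone gave log2 differences of −0.28 in mtYAP and −0.07 in YAP. All 3 probe sets were below control in both YAP lines. The direction between mtYAP and YAP depended on the probe set, at −0.21 in the clearly measured one and 0.10 in the mean.

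Ccne1 and Ccne2 encode the E-type cyclins, the partners of CDK2 at the entry into S phase. Ccne1 stood at 6.34 in control, 7.13 in mtYAP and 6.35 in YAP. It was thus 0.79 higher than control on the log2 scale (1.73-fold) in mtYAP, with YAP beside control. Its 2 probe sets gave log2 differences of 0.62 and 0.96 in mtYAP and of 0.03 and −0.02 in YAP. Ccne2 was read by 1 probe set, at 3.94 in control, 5.35 in mtYAP and 4.19 in YAP. The log2 difference was 1.41 (2.66-fold) in mtYAP and 0.25 (1.19-fold) in YAP, but no array reached a level of 6, so its size is uncertain. Between mtYAP and YAP the log2 difference was 0.79 for Ccne1 and 1.16 for Ccne2, and 1.67% and 0.423% of all genes were higher in mtYAP by as much or more.

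Ccna2 encodes cyclin A2, which works with CDK2 in S phase and with CDK1 in G2. Its level was 7.38 in control cells, 8.80 in mtYAP and 8.01 in YAP. The log2 difference was 1.42 (2.68-fold) in mtYAP and 0.64 (1.55-fold) in YAP. Its 2 probe sets both gave 1.42 in mtYAP, and 0.63 and 0.64 in YAP. Both were clearly measured on every array. Of all genes, 1.71% were higher by as much or more in mtYAP and 3.99% in YAP.

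Ccnb2, cyclin B2, binds CDK1 for mitosis, and alone among the later cyclins here it read higher in YAP than in mtYAP. Its single probe set read 5.27 in control, 6.25 in mtYAP and 6.40 in YAP. The log2 difference was 0.98 (1.97-fold) in mtYAP, just under the limit, and 1.13 (2.19-fold) in YAP. YAP was the higher array by 0.15 on the log2 scale, too close on a single probe set to settle an order. Of all genes, 0.967% were higher by as much or more in YAP than in control. After quantile normalization of the arrays or removal of a trend with level, the difference in mtYAP was above the limit, at most 1.07.

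Ccnf encodes cyclin F, which binds no CDK and is the substrate receptor of an SCF ubiquitin ligase. Its mean level was 4.14 in control cells, 5.26 in mtYAP and 4.92 in YAP, with log2 differences of 1.12 (2.17-fold) and 0.79 (1.72-fold). Both probe sets lay at or below 6 on all arrays. The brighter of them read 5.14, 6.0 and 5.72 in control, mtYAP and YAP, with log2 differences of 0.86 and 0.58. The dimmer one gave 1.38 and 0.99. The call in mtYAP was lost when the brighter probe set was used alone.

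Cdk1 encodes the kinase that cyclins A and B activate at the entry into mitosis. Its probe set read 7.50 in control, 9.0 in mtYAP and 7.95 in YAP. The log2 difference was 1.5 (2.83-fold) in mtYAP, the largest of the 9 genes, and 0.45 (1.37-fold) in YAP. Between mtYAP and YAP it was 1.05 (2.07-fold), and 0.627% of all genes were higher in mtYAP by as much or more. All arrays were above a level of 6. The difference rests on 1 probe set.

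**Figure D2:**
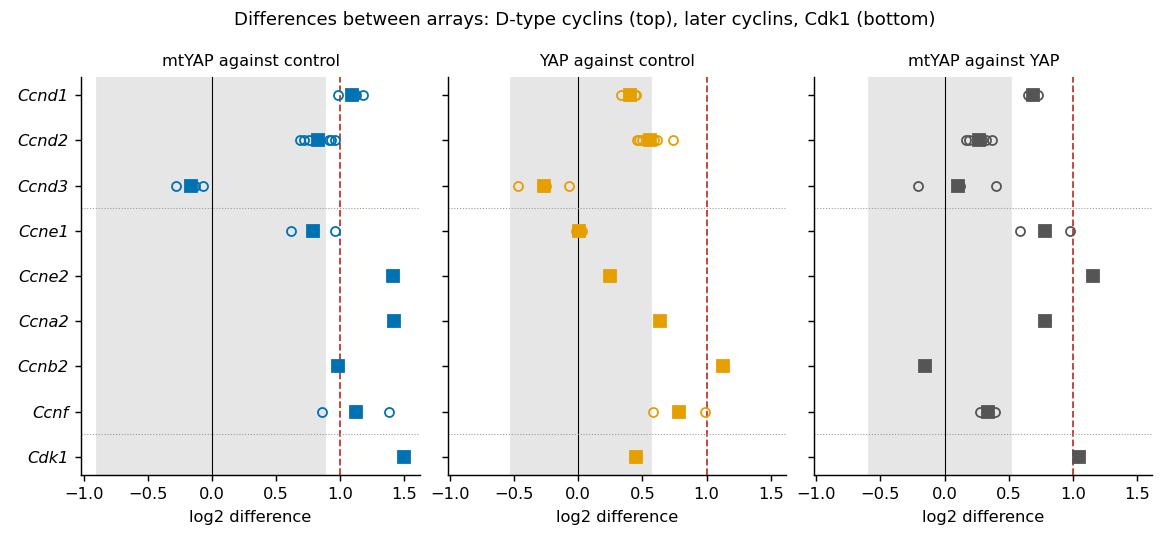
Log2 difference (horizontal axis) of each gene (vertical axis) for mtYAP against control, YAP against control and mtYAP against YAP. Filled squares are gene means, open circles single probe sets, the grey band spans the middle 90% of all genes and the dashed line marks the 2-fold limit. In mtYAP the genes lie between −0.16 (Ccnd3) and 1.5 (Cdk1), and in YAP only Ccnb2, at 1.13, passes the limit.

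The D-type cyclins were then set against the later cyclins E, A, B2 and F. In mtYAP the median log2 difference from control was 0.83 for the 3 D-type genes and 1.12 for the 5 later genes. The values overlapped, running from −0.16 to 1.09 and from 0.79 to 1.42. In YAP the medians were 0.41 and 0.64, with ranges from −0.26 to 0.56 and from 0.005 to 1.13. Later genes thus had the higher median in both lines, by 0.29 in mtYAP and 0.23 in YAP. When probe sets that never reached a level of 6 were left out, the gap in mtYAP was 0.09. It has no error, and Ccnd1 lay above Ccne1 and Ccnb2 in mtYAP.

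Between mtYAP and YAP the medians were further apart, 0.27 for the D-type and 0.79 for the later genes, a gap of 0.52. Ccne1, Ccne2 and Ccna2 were 0.79 to 1.16 higher in mtYAP on the log2 scale. Ccnf at 0.34 and Ccnb2 at −0.15 lay much lower, next to Ccnd2 at 0.27. The later cyclins were therefore not uniform. Among them the E-type genes differed least between YAP and control, and Ccnb2 differed most there. Ccnb2 alone read higher in YAP than in mtYAP, by a step too small on a single probe set to settle an order. Leaving out the probe sets below a level of 6 brought the gap between the medians to 0.27.

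**Figure D3:**
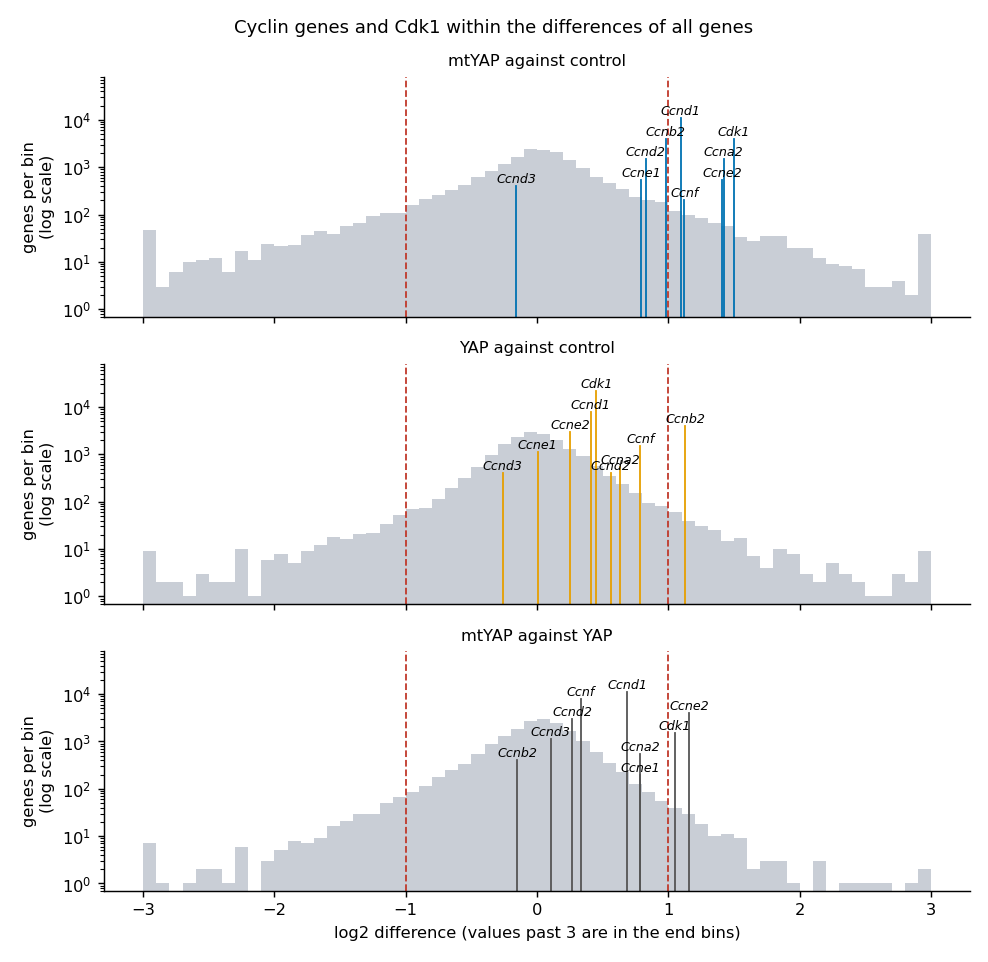
Number of genes per bin of 0.1 (vertical axis, log scale) by log2 difference (horizontal axis) for the 3 comparisons among 18193 genes, with the 9 genes as labelled lines whose heights carry no meaning. Dashed lines mark differences of 1 and −1. In mtYAP all lines but that of Ccnd3 lie at 0.79 or above, and in YAP they spread from −0.26 to 1.13.

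Promoter sequences from RefSeq (build GRCm38.p6), running from 250 bases before the gene start to 50 bases from it on, were at hand for 6 of the 10 genes and not for Ccnd1, Ccnd2, Ccne2 and Ccna2. They were searched on both strands for 5 motifs of cell cycle and YAP biology. TTTGAA is the CHR element and CCAAT the box of the factor NF-Y, which are known together from mitotic genes. TTTNNCGC is a loose form of the E2F site, CACGTG the E-box of MYC, and GGAATG the site of TEAD factors, the DNA-binding partners of YAP. Of 32851 promoters of that length, 17.9% held TTTGAA, 37.4% CCAAT, 6.95% both of these, 5.17% TTTNNCGC, 7.15% CACGTG and 14.7% GGAATG. The promoters of Cdk1 (chr10:69352863-69353162, minus strand), Ccnb2 (chr9:70421505-70421804, minus strand) and Ccnf (chr17:24251360-24251659, minus strand) are shown because each holds 2 TTTGAA matches, as do 2 or more in 2.31% of all promoters. The promoter of the downstream start of Ccnd3 (chr17:47593217-47593516, plus strand) is shown beside them as that of the gene that was not higher in either YAP line. Capitals mark matches to any of the 5 motifs on either strand, so that CCAAT may read ATTGG and GGAATG may read CATTCC.
Cdk1: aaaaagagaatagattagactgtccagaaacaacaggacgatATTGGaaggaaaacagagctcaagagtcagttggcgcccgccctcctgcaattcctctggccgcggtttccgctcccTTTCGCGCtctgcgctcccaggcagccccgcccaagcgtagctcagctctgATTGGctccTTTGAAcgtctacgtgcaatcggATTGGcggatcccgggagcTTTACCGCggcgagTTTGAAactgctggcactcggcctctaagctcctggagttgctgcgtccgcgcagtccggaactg
Ccnb2: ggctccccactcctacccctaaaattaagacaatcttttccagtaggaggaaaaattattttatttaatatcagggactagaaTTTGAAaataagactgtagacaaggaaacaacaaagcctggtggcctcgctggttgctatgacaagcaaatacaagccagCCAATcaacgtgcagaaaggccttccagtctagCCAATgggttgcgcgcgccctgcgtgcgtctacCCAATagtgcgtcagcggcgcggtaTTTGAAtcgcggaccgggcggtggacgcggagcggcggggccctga
Ccnf: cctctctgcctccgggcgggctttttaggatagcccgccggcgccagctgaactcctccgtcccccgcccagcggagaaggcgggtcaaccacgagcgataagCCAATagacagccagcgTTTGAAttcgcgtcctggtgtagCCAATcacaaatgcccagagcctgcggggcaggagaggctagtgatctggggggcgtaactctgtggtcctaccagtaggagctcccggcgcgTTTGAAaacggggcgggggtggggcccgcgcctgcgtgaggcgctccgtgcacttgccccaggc
Ccnd3: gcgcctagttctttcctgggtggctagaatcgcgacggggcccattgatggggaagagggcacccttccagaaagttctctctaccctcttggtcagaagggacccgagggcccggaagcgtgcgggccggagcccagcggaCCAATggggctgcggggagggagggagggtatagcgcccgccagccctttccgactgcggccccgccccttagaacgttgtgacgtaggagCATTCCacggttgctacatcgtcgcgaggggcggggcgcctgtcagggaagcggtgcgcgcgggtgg

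Each position is that of the first base of the match, counted from the gene start as 0. Cdk1 holds TTTGAA at −71 and −15, CCAAT on the minus strand at −208, −80 and −48, and TTTNNCGC at −131 and −29. Ccnb2 holds TTTGAA at −167 and 4, and CCAAT at −87, −54 and −21. Ccnf holds TTTGAA at −130 and −14, and CCAAT at −147 and −107. Ccnd3 holds CCAAT at −108 and GGAATG on the minus strand at −17 at this start, and no match at its other start. The promoter of Ccne1 (chr7:38107441-38107740, minus strand) held no match. Ccnb1, whose level is not analysed here, holds 2 CCAAT matches and no TTTGAA. Only the spellings given above were searched, so other forms of a motif would be missed, in Ccnb1 and Ccne1 as elsewhere. No CACGTG was found in these promoters. Of the 3 genes with TTTGAA, Cdk1 and Ccnf were highest in mtYAP. Ccnb2 read 6.25 in mtYAP and 6.40 in YAP on 1 probe set, too close to settle an order. Whether the motif bears on these levels was not tested. A match is a run of letters and no evidence of binding, and none was tested in these cells.

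**Figure D4:**
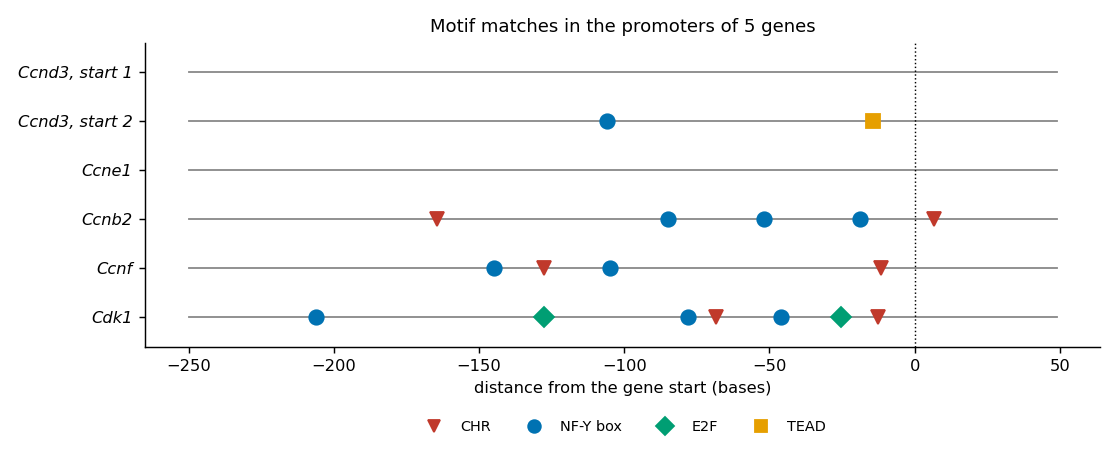
Motif matches (symbols, at their centres) along the promoters of 5 genes, by distance from the gene start in bases (horizontal axis), with Ccnd3 at both of its starts. Triangles are matches to the CHR motif, circles to the NF-Y box, diamonds to the E2F motif and the square to the TEAD motif. Cdk1, Ccnb2 and Ccnf each have 2 CHR matches, the nearer beginning at −15, 4 and −14, and Ccne1 has no match.

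The other CDKs and their activators, inhibitory kinases and phosphatases were followed as a list of 20 genes. In mtYAP 9 of the 20 were above the limit, beside 3.77% of all genes, and the median log2 difference of the 20 was 0.60, beside 0.02 over all genes. Of the 20, 14 reached a level of 6. Of the 9, Cdc25c, Bora and Aurka did not reach it. That left Cdk6, Mnat1, Cks1b, Cks2, Cdc25b and Plk1 above the limit among the 14. Beside them, 7.66% of all genes reaching that level were above the limit. In YAP 1 of the 20 was above it, beside 1.36% of all genes, and the median was 0.50. None was below −1 in either line, where 4.06% and 1.26% of all genes were. Among those reaching a level of 6, the largest differences in mtYAP were those of Cks2 and Cks1b, small subunits that bind CDKs, and of Cdk6, a partner of the D-type cyclins. Cks2 stood at 7.93 in control cells, 10.12 in mtYAP and 9.23 in YAP, a log2 difference of 2.19 and 1.30, and was the gene above the limit in YAP. These are means of 2 probe sets. The paper's supplement lists Cks2 with a smaller difference in YAP, below 2-fold, so that call is not settled. Cks1b stood at 9.29, 10.76 and 9.86 on the same arrays, a log2 difference of 1.48 and 0.57. Cdk6 stood at 6.70, 7.96 and 7.20, a log2 difference of 1.26 and 0.50. Cdk4, the other partner of the D-type cyclins, differed by −0.01 and −0.06 and Cdk2 by 0.09 and −0.09, both named after their values were seen, with Cdk2 below a level of 6 on all arrays.

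A list of 26 genes of cyclin destruction held mainly the SCF ligases, which mark cyclins E and others, and the anaphase-promoting complex, which marks cyclins A and B. It also held a few genes outside both and some that oppose destruction, so its counts and medians mix these roles. Of the 26, 3 were above the limit in mtYAP, beside 3.77% of all genes, and 1 in YAP, beside 1.36%, counts too small to set the list apart. None was below −1 in either line, beside 4.06% and 1.26% of all genes. The median log2 differences were −0.10 and −0.002. The 3 were Ube2c, the E2 enzyme of the anaphase-promoting complex, Fbxo5, its inhibitor EMI1, and Cdc20, its activator in mitosis. Ube2c stood at 7.99 in control, 10.01 in mtYAP and 9.35 in YAP, a log2 difference of 2.02 and 1.36, and was the gene above the limit in YAP. Fbxo5 stood at 6.29, 7.58 and 6.73, a log2 difference of 1.29 and 0.44. Cdc20 stood at 7.47, 8.71 and 8.40, a log2 difference of 1.24 and 0.93. In all, 15 of the 26 were lower in mtYAP than in control.

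A list of 16 cyclins of transcription and other roles was followed as well. None was above the limit in either line, but with 3.77% of all genes above it in mtYAP and 1.36% in YAP a list of this size could hold none. The medians were 0.06 in mtYAP and −0.001 in YAP. Ccng2, an unusual cyclin linked to growth arrest, was the single gene below −1 in mtYAP, where 4.06% of all genes were. A count of 1 among 16 is too small to set the list apart. Ccng2 stood at 8.87 in control, 7.14 in mtYAP and 8.31 in YAP, a log2 difference of −1.74 and −0.57. It was also the single gene of this list past the limit between mtYAP and YAP, at −1.17, where 1.42% of all genes were below −1. Ccnk, the partner of CDK12 and CDK13, stood at 5.51, 6.20 and 5.89, and Ccng1, a target of p53, at 9.35, 9.79 and 9.94.

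**Figure D5:**
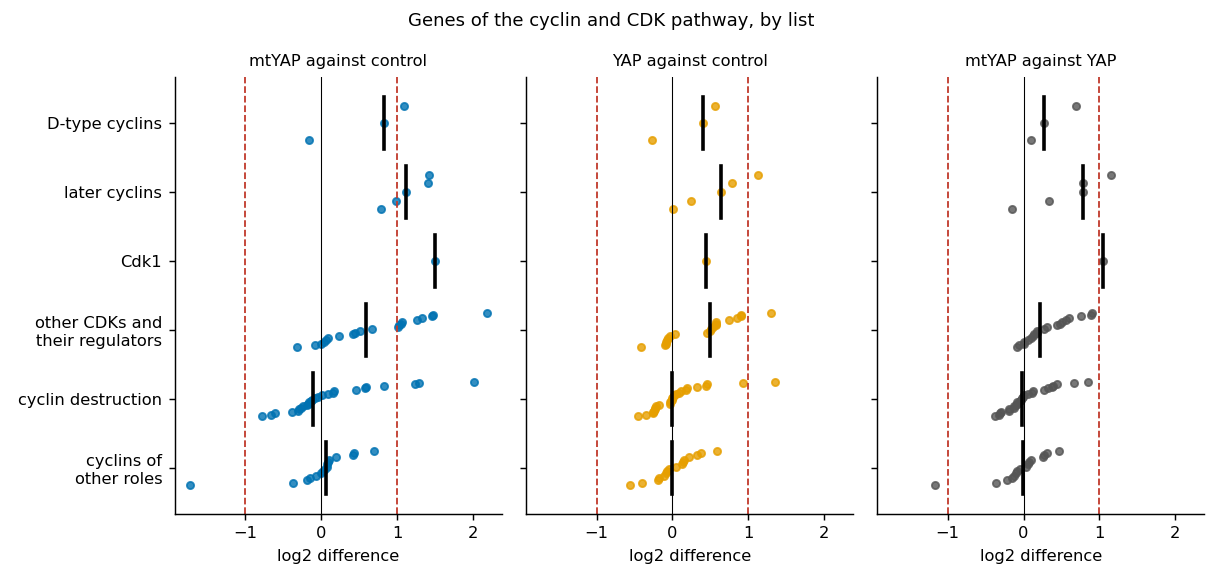
Log2 difference (horizontal axis) of the genes of 6 groups (vertical axis) for the 3 comparisons, with 1 point per gene, the median as a black bar and dashed lines at 1 and −1. The vertical spread within a group has no meaning. In mtYAP the medians are 0.83 for D-type cyclins, 1.12 for later cyclins, 0.60 for other CDKs and their regulators, −0.10 for cyclin destruction and 0.06 for cyclins of other roles.

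The genes whose levels on the 3 arrays ran most like those of Cdk1 were found by Euclidean distance after each gene's own mean was removed, among the 7129 genes that reached a level of 6. They were Timeless, which protects replication forks, at a distance of 0.01 on the log2 scale, Mms22l, a factor of replication-linked repair, at 0.03, and Haus6, an augmin subunit of the spindle, Ptchd4, a membrane protein related to Patched, and Ajuba, a LIM protein, at 0.08 each. Timeless stood at 5.08 in control cells, 6.57 in mtYAP and 5.51 in YAP, and Ajuba at 7.59, 9.20 and 8.12. That all 5 were highest in mtYAP and lowest in control follows from how they were chosen. With 3 arrays such likeness is a weak description. Ajuba was the only one of them above a level of 6 on every array, and the others reached it in mtYAP alone.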

How the data were processed

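The deposited log2 values were used as they stand. The authors hybridized labelled cRNA to Affymetrix mouse 430 2.0 arrays, subtracted background and normalized by robust multiarray analysis, and the submitters' notes name RMA and affy. Versions, and whether more arrays were normalized together with these, are not named in the sources used here. Values carry 2 decimals. Platform annotation gave 34945 probe sets a single gene, 932 several and 9160 none, and the first kind was averaged per gene. The symbols of 18032 genes were found in RefSeq and none changed, 161 were not found, and the listed Skp1a was read as Skp1.

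Differences between arrays were computed without any test, having no replicates. Genes past a log2 difference of 1 were called. The members and lists were chosen with earlier results of these data known. Named genes were all members, the 3 largest absolute differences of each list in mtYAP among genes reaching a level of 6, the 5 nearest to Cdk1, and Yap1. Cdk4 and Cdk2 were named outside this rule, after their values were seen, as were the remaining genes above the limit in the list of other CDKs. Joining and counting were tested on simulated data. Alternatives were other ways of joining probe sets, filters, scalings and a limit of 0.65. Python 3.11.15 with numpy 2.4.6, pandas 2.3.3, statsmodels 0.14.6 and matplotlib 3.10.9 was used.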

Additional observations from a re-analysis of the deposited data

How the results depend on the processing

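Every value compares single arrays, so no replicate could be left out, and no paired analysis was possible because each group has 1 array. All 213 recomputed differences of single genes stayed within 1.5-fold of the reported one on the linear fold scale, which for small log2 differences leaves room for larger relative moves. Many of them could not move, so this count says little. A gene with 1 probe set reads the same however probe sets are joined, and keeping probe sets of several genes changed none of these genes. Ccnd3 ranged from −0.21 to 0.12 between mtYAP and YAP, and Ccne1 from −0.02 to 0.03 in YAP, so that their directions there were not settled. With only probe sets reaching a level of 6, 3 of 8 genes were above the limit in mtYAP (Ccnd1, Ccna2 and Cdk1), beside 748 of 8926 genes. Between mtYAP and YAP there was 1 (Cdk1), beside 147 of 8926. Ccne2 was left out by this filter, and Ccnf read 0.86 in mtYAP. With a limit of 0.65 there were 8 genes in mtYAP, 2 in YAP and 5 between them, beside 1468, 681 and 506 of 18193 genes. Over the other alternatives these counts ran from 4 to 6 in mtYAP and stayed at 1 and 2. Beside them, the counts over all genes ran from 598 to 1088, from 216 to 436 and from 116 to 260, of 16591 to 19324 genes. The gap between later and D-type medians ran from 0.09 to 0.43 in mtYAP, from 0.13 to 0.31 in YAP and from 0.27 to 0.60 between them. The later genes were higher each time, but some alternatives could not move the gap. Removing the median difference takes the same amount from every gene, and all alternatives use the same 3 arrays. Over all genes, the limit of 0.65 gave 1468 higher and 1517 lower genes in mtYAP, 681 and 565 in YAP and 506 and 741 between them, and any probe set past the limit gave 1088 and 1147, 436 and 375, and 260 and 443.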
